A study of Mus musculus with 18 samples.

Results

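Cholesterol synthesis genes were examined in adipose tissue of WT and C6KO mice: the master regulator Srebf2 and the 7 enzyme genes Hmgcs1, Mvd, Idi1, Fdft1, Sqle, Lss and Cyp51, which were picked by symbol and make up 8 of the 25124 genes in the deposited tables. All 8 were present in the tables of the 3 depots and passed the filter on low counts in every comparison. RNA came from 2 white depots, the inguinal (iWAT) and the epididymal (eWAT), and from brown fat (BAT), with 3 WT and 3 C6KO libraries for each depot and 18 libraries in all. C6KO mice lack caspase-6, a protease of the caspase family, in the whole body and not in adipose tissue alone. The study's methods give male mice on the C57BL/6J background, littermates from heterozygous parents, with feeding started at 10 to 14 weeks of age. All groups, the WT controls included, ate an HFD with 60% fat, which lasted 12 weeks, and chow-fed mice were not analysed here. The methods give a fast of 10 hours before tissue collection, though not in the lines on the C6KO mice.

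Cholesterol is built from acetyl-CoA. Hmgcs1 encodes the cytosolic synthase that makes HMG-CoA, from which mevalonate is formed. Mvd and Idi1 complete the isoprenoid units, Fdft1 (squalene synthase) joins farnesyl units into squalene, Sqle (squalene epoxidase) oxidises it, Lss closes the sterol rings to lanosterol, and Cyp51 takes off a methyl group of lanosterol. Srebf2 encodes SREBP-2, a factor held in the endoplasmic reticulum while sterols are plentiful and released to the nucleus when they run low, where it raises the transcription of the whole route. Fat cells store a large pool of free cholesterol, most of it taken up from the blood and not made in the cell.

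Casp6, the deleted gene, did not overlap between genotypes in any depot. Its levels were 5.55 to 8.09 CPM in iWAT C6KO against 16.2 to 20.3 in WT, 3.85 to 6.08 against 17.4 to 20.8 in eWAT and 3.32 to 7.61 against 11.9 to 21.2 in BAT (counts scaled to library size by TMM over the 18 libraries). The log2 fold changes of -1.51, -1.85 and -1.50 had adjusted p-values of 0.0751, 0.0132 and 0.0671 in edgeR's quasi-likelihood test. It was called by DESeq2 in each depot (adjusted p = 3.25e-07, 1.27e-12 and 0.00316), the edgeR call in eWAT was lost without any 1 of the eWAT WT libraries (adjusted p 0.0645 to 0.0938), and reads remained in all C6KO libraries. Total counts were 16506034 to 19139694 in the white depots and 7803108 to 12428683 in BAT, so low genes were counted less precisely in BAT. The brown adipocyte markers had a summed level of 7879 to 17881 CPM in BAT against at most 73.2 CPM elsewhere. Several libraries stood apart. The 8 macrophage markers summed to 1166 CPM in iWAT C6KO replicate 3, against 369 and 392 CPM in the other iWAT C6KO libraries and 1573 to 1741 CPM in iWAT WT. The 6 skeletal muscle markers summed to 28445 CPM in BAT WT replicate 2, against 166 and 1388 CPM in the other BAT WT libraries and 363 to 6079 CPM in BAT C6KO.

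Per kilobase of transcript, the scale on which genes can be set beside each other, Hmgcs1 was the most abundant member in all depots. Its level in WT mice was 127 CPM per kilobase in iWAT, 66.7 in eWAT and 247 in BAT, which was 66.0%, 43.7% and 83.5% of the summed level of the 8 genes (means of 3 libraries). Fdft1 came next with 25.3, 42.8 and 20.1 CPM per kilobase. Srebf2 was at 9.72 to 19.9, and Mvd, Sqle, Lss and Cyp51 were between 3.59 and 7.86 in the WT groups. Idi1 was the lowest at 0.33 to 0.45 CPM per kilobase, with 8 to 27 counts in the WT libraries and 2 to 37 in C6KO, so that its differences had wide intervals.

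**Figure D1:**
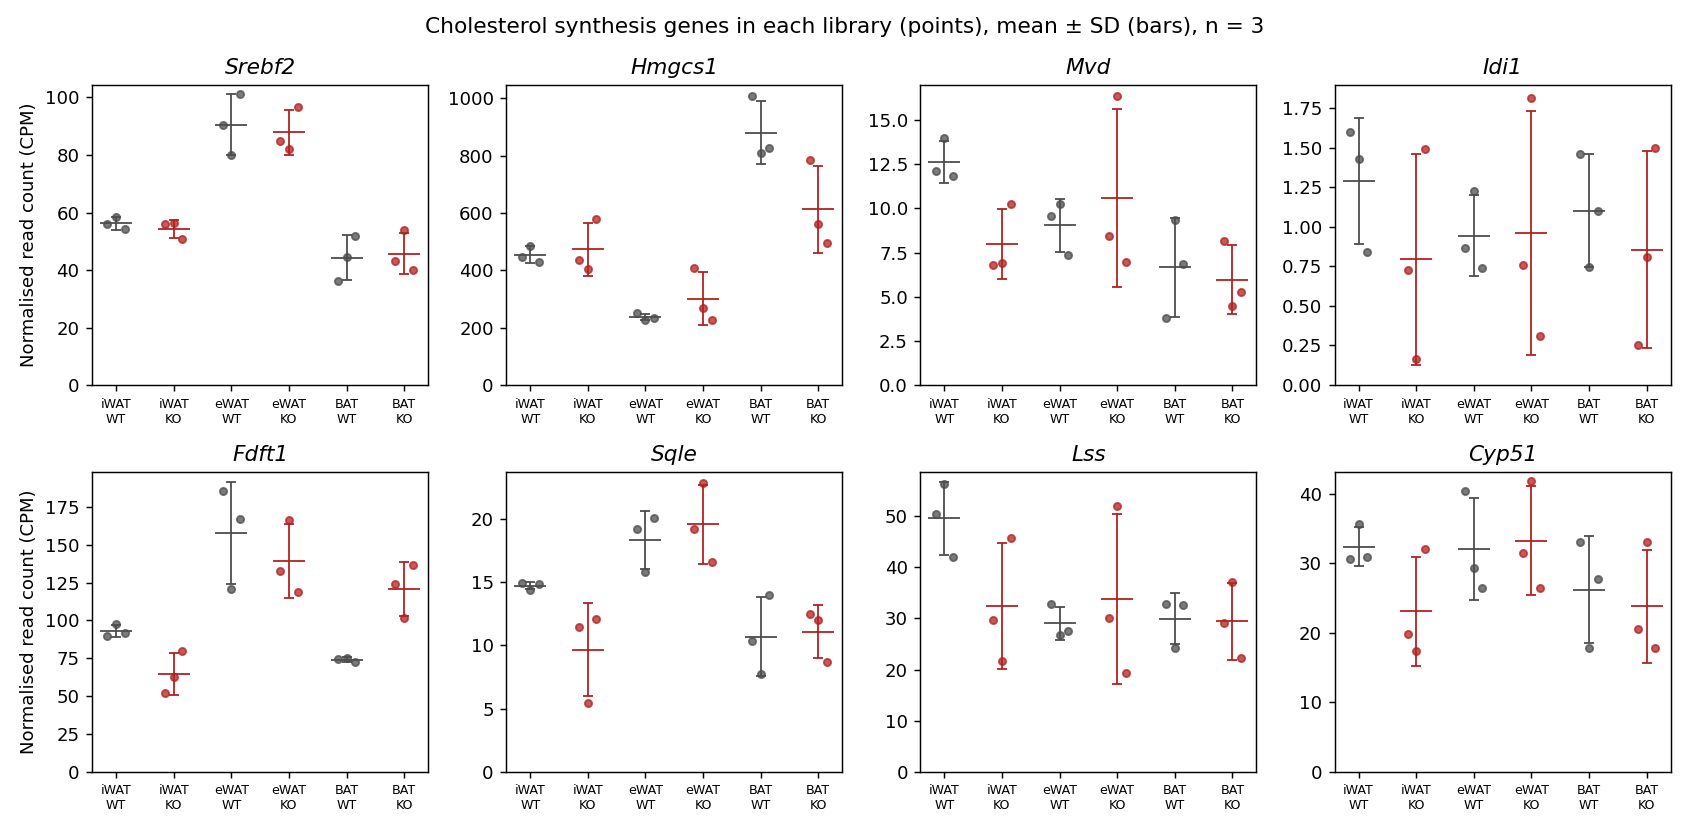
Normalised read count (CPM, vertical axes starting at 0, 1 panel per gene) of the 8 genes in each library, by depot and genotype. Points are libraries, horizontal bars the means and whiskers the SD (n = 3). Hmgcs1 is highest in BAT, Srebf2 and Fdft1 in eWAT, and Fdft1 in BAT is the clearest separation of C6KO above WT (101 to 137 against 72.5 to 75.5 CPM).

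The WT depots differed most for Hmgcs1, the entry enzyme (mm10 chromosome 13, 119690351 to 119708260, plus strand, listed as NM_145942). Its level was 448, 487 and 428 CPM in iWAT, 250, 227 and 236 CPM in eWAT and 1007, 809 and 826 CPM in BAT. The 3 depots did not overlap, and the order was BAT, iWAT, eWAT. Log2 fold changes were -0.93 (SE 0.21, adjusted p = 0.00265) for eWAT against iWAT, 0.96 (SE 0.21, adjusted p = 0.00131) for BAT against iWAT and 1.89 (SE 0.21, adjusted p = 1.09e-06) for BAT against eWAT, all from 1 edgeR fit of the 18 libraries. To be called, a gene had to reach 1.5-fold with an adjusted p below 0.05. Whether the depots were sequenced together is not given in the sources used here, so depot and run cannot be told apart.

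Srebf2 (chromosome 15, 82147269 to 82204960, plus strand, NM_033218) had another order. WT levels were 55.9, 58.5 and 54.2 CPM in iWAT, 90.3, 80.0 and 101 CPM in eWAT and 36.2, 44.7 and 51.8 CPM in BAT. It was higher in eWAT than in iWAT (log2 fold change 0.69, SE 0.14, adjusted p = 0.00134) and lower in BAT than in eWAT (-1.03, SE 0.14, adjusted p = 9.47e-06). BAT and iWAT, its neighbours in this order, did not overlap but missed the thresholds (-0.34, 95% interval -0.64 to -0.046, adjusted p = 0.0541). The regulator was highest in the depot where Hmgcs1 was lowest, and lowest where Hmgcs1 was highest.

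The RefSeq promoter windows (GRCm38.p6, the assembly of mm10), 250 bases before to 50 bases after the start, were found for 6 of the 8 members and not for Fdft1 and Sqle. Of the 6, the Hmgcs1 window alone held an exact match to the letters searched for the sterol regulatory element, the site read by SREBP-2. The Srebf2 window is shown beside it because the regulator's own levels ran the other way. Capitals mark, on either strand, TCACNCCAC (the sterol regulatory element), CCAAT (the CCAAT box, bound by NF-Y) and GGGCGG (the GC box, bound by SP1), and no match overlaps another kind.
Hmgcs1, chr13:119690101-119690400, plus strand: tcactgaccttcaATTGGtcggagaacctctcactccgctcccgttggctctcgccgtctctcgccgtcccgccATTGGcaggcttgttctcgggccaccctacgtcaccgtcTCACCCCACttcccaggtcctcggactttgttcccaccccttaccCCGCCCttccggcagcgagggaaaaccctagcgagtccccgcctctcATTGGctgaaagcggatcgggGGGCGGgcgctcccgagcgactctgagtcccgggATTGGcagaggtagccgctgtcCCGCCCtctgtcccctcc
Srebf2, chr15:82147019-82147318, plus strand: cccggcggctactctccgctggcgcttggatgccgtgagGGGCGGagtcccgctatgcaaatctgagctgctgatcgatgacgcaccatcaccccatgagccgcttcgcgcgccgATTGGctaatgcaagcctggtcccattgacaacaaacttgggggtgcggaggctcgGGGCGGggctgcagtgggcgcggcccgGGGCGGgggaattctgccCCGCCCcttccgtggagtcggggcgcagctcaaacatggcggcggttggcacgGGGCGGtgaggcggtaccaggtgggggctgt
TCACNCCAC occurred in 1.24% of all 32851 windows of 300 bases, CCAAT in 37.4% and GGGCGG in 35.7%. Hmgcs1 held 1 sterol regulatory element, 4 CCAAT boxes and 3 GC boxes, and Srebf2 held 1 CCAAT box and 5 GC boxes. All 6 member windows held both a CCAAT box and a GC box. These are exact letters in a short window and show no binding. Near matches and other forms of the element were not searched, so a window without a match may still hold one.

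In the middle of the route, Mvd (chromosome 8, 122433596 to 122443422, minus strand, listed under the non-coding transcript NR_028354) fell in BAT. WT levels were 12.1, 13.98 and 11.8 CPM in iWAT, 9.58, 10.2 and 7.34 CPM in eWAT and 3.80, 9.35 and 6.83 CPM in BAT. BAT was below iWAT in every library (log2 fold change -0.91, SE 0.34, adjusted p = 0.0373), and the call was lost without any of the 3 iWAT WT libraries or without BAT WT replicate 1 or 3 (adjusted p 0.0591 to 0.152). BAT WT replicate 2, the library rich in muscle markers, had the highest Mvd of BAT. Differences of eWAT from iWAT and of BAT from eWAT missed the thresholds (-0.48 and -0.43, adjusted p = 0.285 and 0.299). Idi1 (chromosome 13, 8885606 to 8892396, plus strand, NM_145360) had depot means of 1.29 ± 0.399 CPM in iWAT, 0.945 ± 0.254 in eWAT and 1.10 ± 0.356 in BAT (SD, n = 3), with adjusted p-values of 0.664 to 0.832.

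Of the squalene pair, Fdft1 (chromosome 14, 63145151 to 63179578, minus strand, NM_010191) was higher in eWAT. WT levels were 89.7, 97.7 and 92.0 CPM in iWAT, 186, 120 and 167 CPM in eWAT and 74.5, 75.5 and 72.5 CPM in BAT. Fdft1 was higher in eWAT than in iWAT (log2 fold change 0.76, SE 0.18, adjusted p = 0.00363) and lower in BAT than in eWAT (-1.09, SE 0.18, adjusted p = 6.39e-05), and BAT and iWAT missed the thresholds (-0.33, adjusted p = 0.138). The last 773 bases of Fdft1 lie across the end of Ctsb, a cathepsin gene on the plus strand (chromosome 14, 63122462 to 63145923) with 13392 to 144751 counts per library. The strand setting of the counting is not given in the sources used here, so reads of the 2 genes in that stretch may not have been told apart. Ctsb itself was higher in WT eWAT than in iWAT (0.73) and lower in BAT than in eWAT (-1.87) and iWAT (-1.15), all called, and its part in the Fdft1 counts was not tested.

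Sqle (chromosome 15, 59315092 to 59331193, plus strand, NM_009270) had WT levels of 14.9, 14.4 and 14.9 CPM in iWAT, 19.2, 15.8 and 20.1 CPM in eWAT and 10.4, 7.76 and 13.99 CPM in BAT. It was lower in BAT than in eWAT (log2 fold change -0.78, SE 0.26, adjusted p = 0.0180), a call lost without eWAT WT replicate 3 (adjusted p = 0.0565) or BAT WT replicate 2 (adjusted p = 0.0843). Its neighbours in the order eWAT, iWAT, BAT did not differ past the thresholds (0.32 for eWAT against iWAT and -0.46 for BAT against iWAT, adjusted p = 0.370 and 0.160). The sterol-forming enzymes came last. Lss (chromosome 10, 76531605 to 76557139, plus strand, NM_146006) was at 50.4, 56.3 and 42.0 CPM in iWAT, above all eWAT libraries (32.7, 26.8 and 27.6 CPM) and all BAT libraries (32.9, 24.2 and 32.7 CPM). The differences from iWAT were -0.77 for eWAT and -0.73 for BAT and missed the threshold in edgeR (adjusted p = 0.0700 and 0.0676), while DESeq2 called the second (-0.74, adjusted p = 0.0460). Lss overlaps 4930483K19Rik on the other strand, which had 4 to 64 counts per library. Cyp51 (chromosome 5, 4080674 to 4104697, minus strand, NM_020010) overlapped among the 3 depots, at 32.3 ± 2.81 CPM in iWAT, 32.0 ± 7.36 in eWAT and 26.2 ± 7.68 in BAT (SD, n = 3), and its largest estimate was -0.31 for BAT against iWAT (95% interval -0.91 to 0.29).

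**Figure D2:**
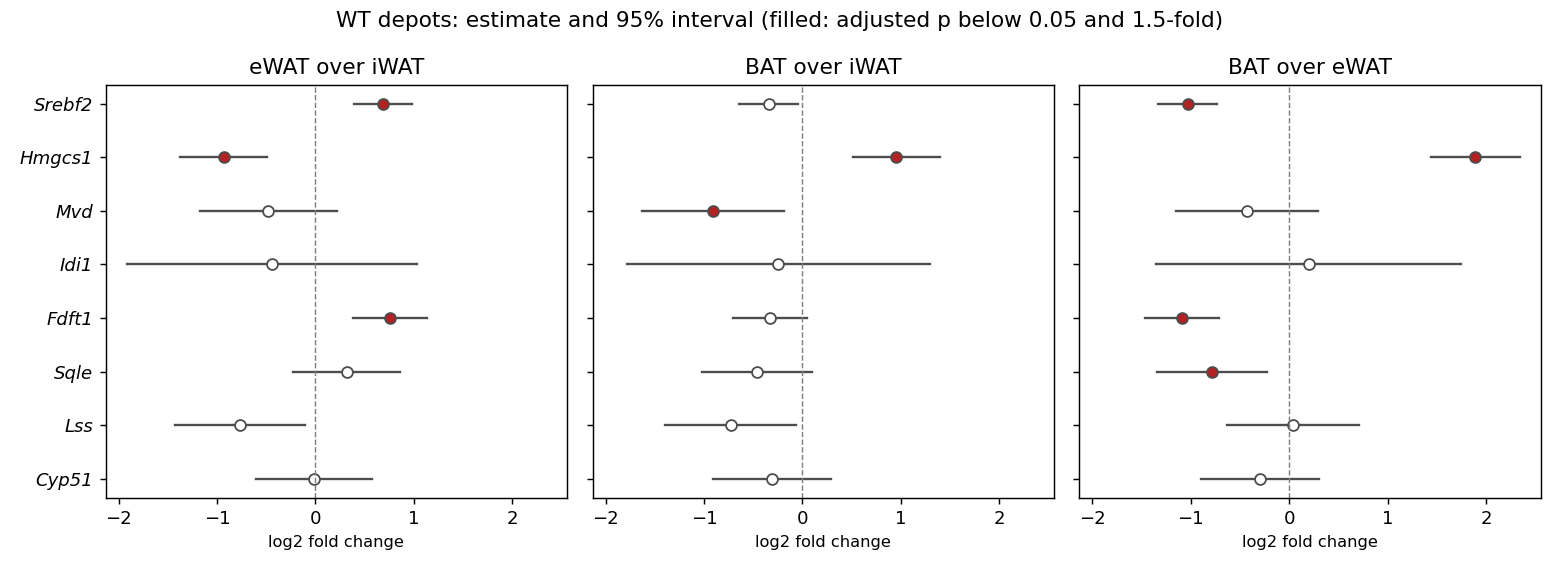
Log2 fold changes between WT depots (horizontal axes) of the 8 genes (vertical axis), from 1 edgeR fit of 18 libraries. Circles are estimates, lines 95% intervals, and filled circles passed an adjusted p below 0.05 and 1.5-fold. Hmgcs1 lies on the opposite side from Srebf2 and Fdft1 in every panel, and in the middle panel Srebf2 and Fdft1 were not called.

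Counted together, 3 of the 8 genes were called between eWAT and iWAT (2 higher and 1 lower in eWAT), where 25.7% of all 15866 genes tested were called. Between BAT and iWAT 2 were called (1 higher and 1 lower in BAT) against 38.7% of all genes, and between BAT and eWAT 4 were called (1 higher and 3 lower in BAT) against 48.6%. The members' medians were -0.23, -0.34 and -0.36 on the log2 scale, and those of all genes 0.0054, 0.011 and 0.026. Scaling by total counts alone moved the median of all genes to 0.15, -0.13 and -0.26, and no call on Hmgcs1, Srebf2 or Fdft1 was lost. Of the 14 other enzymes of the route, none rose and 5 fell in eWAT against iWAT, among them Sc5d (-1.22, adjusted p = 0.000110), which introduces a double bond late in the route, and Acat2 (-1.12, adjusted p = 0.00436), which condenses acetyl-CoA ahead of Hmgcs1. In BAT against eWAT 2 rose and 3 fell. Acat2 rose by 2.60 (adjusted p = 7.33e-07), the same direction as its neighbour Hmgcs1. In eWAT against iWAT all 8 macrophage markers were called higher (median 1.81) and all 6 adipocyte markers lower (median -1.40). In BAT all 8 macrophage markers were called lower against eWAT and 7 against iWAT. Of the adipocyte markers 3 were called higher and 1 lower against eWAT, and 3 lower against iWAT. All 6 skeletal muscle markers were called higher in BAT against both. The part of cell make-up in the members' differences was not tested.

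In iWAT, 7 of the 8 genes had lower estimates in C6KO than in WT, and none passed the thresholds. Their median log2 fold change was -0.56, from -0.69 to 0.065, against 0.027 for all 14533 genes tested. Of all genes 0.0275% were called, 16.5% had an unadjusted p below 0.05 and 23.1% did not overlap between the groups. Among the members 0 were called by edgeR and 0 by DESeq2, 3 had an unadjusted p below 0.05 (Mvd, Fdft1 and Lss) and 3 did not overlap (Mvd, Fdft1 and Sqle), in each case lower in C6KO.

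The 6 enzymes below Hmgcs1 all had lower estimates in iWAT. C6KO libraries 1, 2 and 3 had 6.78, 6.92 and 10.3 CPM of Mvd, whose lowest WT library had 11.8 CPM (log2 fold change -0.66, 95% interval -1.14 to -0.17, adjusted p = 0.202). Fdft1 was at 51.9, 62.7 and 79.5 CPM against at least 89.7 CPM in WT (-0.52, 95% interval -0.87 to -0.17, adjusted p = 0.184), and Ctsb, its overlapping neighbour, was lower as well (-0.56, adjusted p = 0.250). Sqle was at 11.5, 5.43 and 12.1 CPM against at least 14.4 CPM in WT (-0.60, adjusted p = 0.327). C6KO replicate 3 was the highest of its group for each of these genes. Lss was at 29.7, 21.7 and 45.8 CPM against 42.0 to 56.3 CPM in WT (-0.61, adjusted p = 0.286), so that replicate 3 lay within the WT range. Cyp51 was at 19.8, 17.3 and 32.0 CPM against 30.5 to 35.6 CPM in WT (-0.48, adjusted p = 0.318), again with replicate 3 in the WT range. Idi1 counts were 13, 3 and 26 against 27, 24 and 15, with an interval from -2.27 to 0.88. The other 2 members had estimates near 0. Hmgcs1 was at 437, 406 and 579 CPM (0.065, 95% interval -0.30 to 0.43), and Srebf2 at 55.9, 56.3 and 50.6 CPM (-0.044, 95% interval -0.29 to 0.20).

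One library decided whether these genes were called. Without iWAT C6KO replicate 3, which had the highest macrophage and hepatocyte markers of its group, 4 of the 8 genes were called lower: Lss (-0.96, adjusted p = 0.0148), Mvd (-0.89, adjusted p = 0.0257), Cyp51 (-0.81, adjusted p = 0.0122) and Fdft1 (-0.71, adjusted p = 0.0116). In that fit 8.64% of all 14798 genes tested were called, and the lone pair of C6KO libraries was assumed to vary as the WT libraries do. Hmgcs1 then had an estimate of -0.12 (adjusted p = 0.631). Ctsb, which overlaps Fdft1, was called lower in that fit too (-0.84, adjusted p = 0.0119), and its part in the Fdft1 counts was not tested. With replicate 3 kept, all 8 macrophage markers were lower in C6KO than in WT without overlap in iWAT, with a median of -1.44. Among all genes 23.1% did not overlap. Of the 8 markers edgeR called 0 (smallest adjusted p = 0.178) and DESeq2 called 3 lower. The 7 hepatocyte markers summed to 279 CPM in replicate 3, against 46.3 and 49.9 CPM in the other iWAT C6KO libraries and 13.7 to 56.8 CPM in iWAT WT. The part of either in the members' values was not tested. In bulk tissue, fewer cells of a type and less RNA per cell cannot be told apart.

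The 14 other enzymes of the route gave a like picture in iWAT, with 12 lower and 2 higher estimates, a median of -0.33, none called by edgeR and 4 with an unadjusted p below 0.05, all lower. Nsdhl, which works on the sterol after Cyp51, was at 23.0, 19.8 and 50.3 CPM against 70.5, 64.6 and 53.3 CPM in WT (-1.01, SE 0.35, adjusted p = 0.234), and DESeq2 called it (-1.02, adjusted p = 0.0285). The uptake list, 6 of whose 7 genes were tested, had 6 lower estimates and none called by edgeR, with 2 at an unadjusted p below 0.05. DESeq2 called 2 of them lower, among them Lipa, the lysosomal lipase that frees cholesterol from its esters. The 9 regulators of SREBP processing had a median of 0.10 and 0 calls by either tool. Of the 10 genes of sterol storage and efflux edgeR called none, and DESeq2 called 1. This was Soat1, which esterifies cholesterol for storage, at 13.7, 13.7 and 36.7 CPM against 52.6, 70.9 and 70.9 CPM in WT (edgeR -1.60, adjusted p = 0.168; DESeq2 -1.61, adjusted p = 0.000592).

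In eWAT none of the 8 genes was called by edgeR or DESeq2, none had an unadjusted p below 0.05 and none was free of overlap. Among all 14889 genes tested, these shares were 0.746% called, 17.6% with an unadjusted p below 0.05 and 23.2% without overlap. The members' median was 0.077 (from -0.18 to 0.35), and that of all genes was -0.0060. Hmgcs1 had the largest estimate, with 407, 270 and 228 CPM in C6KO libraries 1 to 3 against 227 to 250 CPM in WT (log2 fold change 0.35, 95% interval -0.095 to 0.79). The C6KO libraries lay far apart. Replicate 2 was above every WT library for Mvd (16.4 CPM against 7.34 to 10.2) and Lss (52.0 CPM against 26.8 to 32.7), while replicate 3 was below every WT library for Mvd (6.98 CPM) and Lss (19.4 CPM). Intervals were accordingly wide, from -0.47 to 0.93 for Mvd and from -0.58 to 1.02 for Lss. Srebf2 was at 84.7, 82.1 and 96.9 CPM, inside the WT range (-0.037, 95% interval -0.30 to 0.23). Of the 14 other enzymes none was called in eWAT by edgeR or DESeq2 and the median was 0.11, and neither tool called a regulator or a gene of uptake, storage or efflux. Hepatocyte markers summed to 27.4 to 79.8 CPM in C6KO against 9.74 to 15.1 CPM in WT. The macrophage markers summed to 3543 to 4517 CPM in C6KO against 5338 to 6290 CPM in WT, and the part of either in the members' values was not tested.

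**Figure D3:**
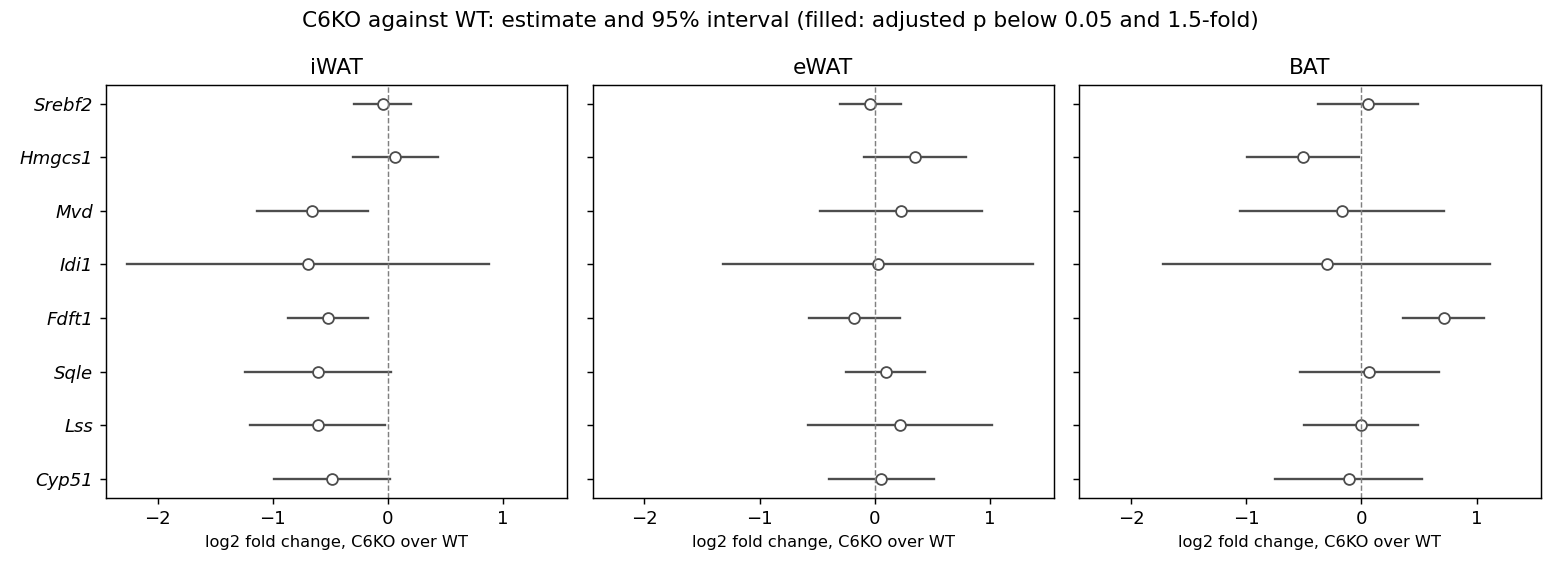
Log2 fold change of C6KO over WT (horizontal axes) for the 8 genes (vertical axis) in iWAT, eWAT and BAT, from edgeR fits of 6 libraries each. Circles are estimates and lines 95% intervals, and no circle is filled because no gene passed an adjusted p below 0.05 and 1.5-fold. Mvd, Fdft1 and Lss have intervals below 0 in iWAT, and in BAT that of Fdft1 lies above 0 and that of Hmgcs1 below 0.

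In BAT the 8 genes had estimates of both signs. Fdft1 was at 124, 101 and 137 CPM in C6KO (973, 1129 and 1275 counts) against 74.5, 75.5 and 72.5 CPM in WT (510, 807 and 658 counts), so that every C6KO library was above every WT library. Its log2 fold change was 0.71 (a 1.64-fold level, SE 0.16, 95% interval 0.36 to 1.06), with an adjusted p of 0.0674 in edgeR, just outside the threshold. DESeq2 called it (0.73, adjusted p = 0.00221), as did the edgeR fit of all 18 libraries (0.70, adjusted p = 0.0370), in which 2.89% and 3.31% of all genes were called. Leaving out each BAT library in turn gave 0.63 to 0.85 and no call, with 0.76 without the WT library rich in muscle markers. Ctsb was not higher in these C6KO libraries (1780, 1520 and 1435 CPM against 2120, 1655 and 1923 CPM, log2 fold change -0.25, adjusted p = 0.612).

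Hmgcs1 lay on the other side, at 784, 560 and 494 CPM in C6KO against 1007, 809 and 826 CPM in WT, without overlap (-0.51, 95% interval -0.99 to -0.024, adjusted p = 0.350), and the estimate without the WT library rich in muscle markers was -0.54. The remaining 6 overlapped between the groups. Srebf2 (0.056), Sqle (0.067) and Lss (-0.0038) had estimates near 0, with intervals of -0.38 to 0.49, -0.54 to 0.67 and -0.50 to 0.49. Mvd (-0.17), Cyp51 (-0.11) and Idi1 (-0.30) were estimated a little lower with wider intervals, that of Mvd running from -1.06 to 0.72 on 26 to 100 counts. Thus 0 of 8 were called by edgeR, 2 had an unadjusted p below 0.05 and 2 did not overlap, 1 in each direction. The shares among all 13595 genes tested in BAT were 1.24%, 13.2% and 19.8%. The members' median was -0.058.

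Within each library the level of Hmgcs1 over that of Fdft1, both per kilobase, needs no scaling between libraries. This pair was picked after its values were seen, so the ratio is a description with no test. In BAT it was 11.1 to 13.98 in WT and 3.74 to 6.52 in C6KO. It was 4.81 to 5.16 in WT and 6.69 to 8.70 in C6KO in iWAT, and 1.39 to 1.95 against 1.68 to 3.18 in eWAT. The BAT ranges lie far apart with C6KO lower, while in iWAT C6KO is the higher one.

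The other enzymes of the route also had estimates of both signs in BAT. None of the 14 was called by edgeR, 1 had an unadjusted p below 0.05 on the higher side and 2 on the lower side, and the median was -0.13. Sc5d was at 80.9, 70.7 and 54.8 CPM in C6KO against 111, 105 and 108 CPM in WT (-0.64, SE 0.17, adjusted p = 0.130), and DESeq2 called it lower (-0.62, adjusted p = 0.0466). The 3 C6KO libraries were all below the 3 WT libraries. Among the genes of sterol storage and efflux, 1 of the 9 tested was called in BAT by edgeR, again Soat1. Soat1 fell by 1.56 (SE 0.29, adjusted p = 0.0410), from 21.0, 18.6 and 17.8 CPM to 8.95, 3.95 and 6.54 CPM, and DESeq2 called it too (-1.55, adjusted p = 0.000221), along with Nceh1, an ester hydrolase. The edgeR call was kept without BAT WT replicate 2 and lost without any 1 of the other BAT libraries (adjusted p 0.0577 to 0.151). It is also abundant in macrophages, and 5 of the 8 macrophage markers were called lower in BAT C6KO, whose summed level was 208 to 328 CPM against 607 to 822 CPM in WT. The part of these cells in Soat1 or in the members was not tested.

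Whether the C6KO effect differed between depots was tested as an interaction in the fit of 18 libraries. In edgeR 0 of the 8 genes were called in any of the 3 contrasts. Fdft1 came closest, with a C6KO effect 1.23 higher on the log2 scale in BAT than in iWAT (SE 0.25, 95% interval 0.70 to 1.76, adjusted p = 0.0661). It was called by DESeq2 (1.22, adjusted p = 0.00152), with at least 10 counts required in every library (1.28, adjusted p = 0.0409) and without iWAT C6KO replicate 3, where it was the 1 member called. The share of all genes called was 0.183% in the main fit and 0.799%, 0.283% and 0.695% in these alternatives. Against eWAT the effect on Fdft1 in BAT was 0.88 higher (SE 0.25, adjusted p = 0.140, with 0.536% of all genes called), and DESeq2 called this too (0.90, adjusted p = 0.0333, with 1.67% called).

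For Hmgcs1 the estimates had the opposite sign, the effect in BAT being 0.87 lower than in eWAT (SE 0.29, adjusted p = 0.237) and 0.58 lower than in iWAT (adjusted p = 0.531). Between eWAT and iWAT all 8 estimates were higher in eWAT, with a median of 0.62 against 0.012 for all genes and a smallest adjusted p of 0.937. At an unadjusted p below 0.05 there were 0 members in eWAT against iWAT, 1 in BAT against iWAT and 2 in BAT against eWAT. Among all genes these shares were 5.48%, 9.93% and 11.2%, and 0% were called in eWAT against iWAT. These contrasts share libraries and are not independent of each other.

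How the genes moved with each other was described from log2 CPM (prior count 2) after the mean of each depot and genotype was taken off, over 18 libraries. Of the 28 pairs of members 22 had a Pearson r above 0, with a median of 0.27 and a range from -0.39 to 0.85. The points share libraries, and with 3 libraries in a group the deviations are few, so no p is given. Lss and Cyp51, which act one after the other, had the highest r (0.85, Spearman 0.89), followed by Sqle and Lss (0.72). The r of each gene to the mean of the other 7 was highest for Lss (0.92) and lowest for Srebf2 (-0.26). Each of the 7 enzymes had an r above 0 (0.28 to 0.92), and the regulator alone was below 0.

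**Figure D4:**
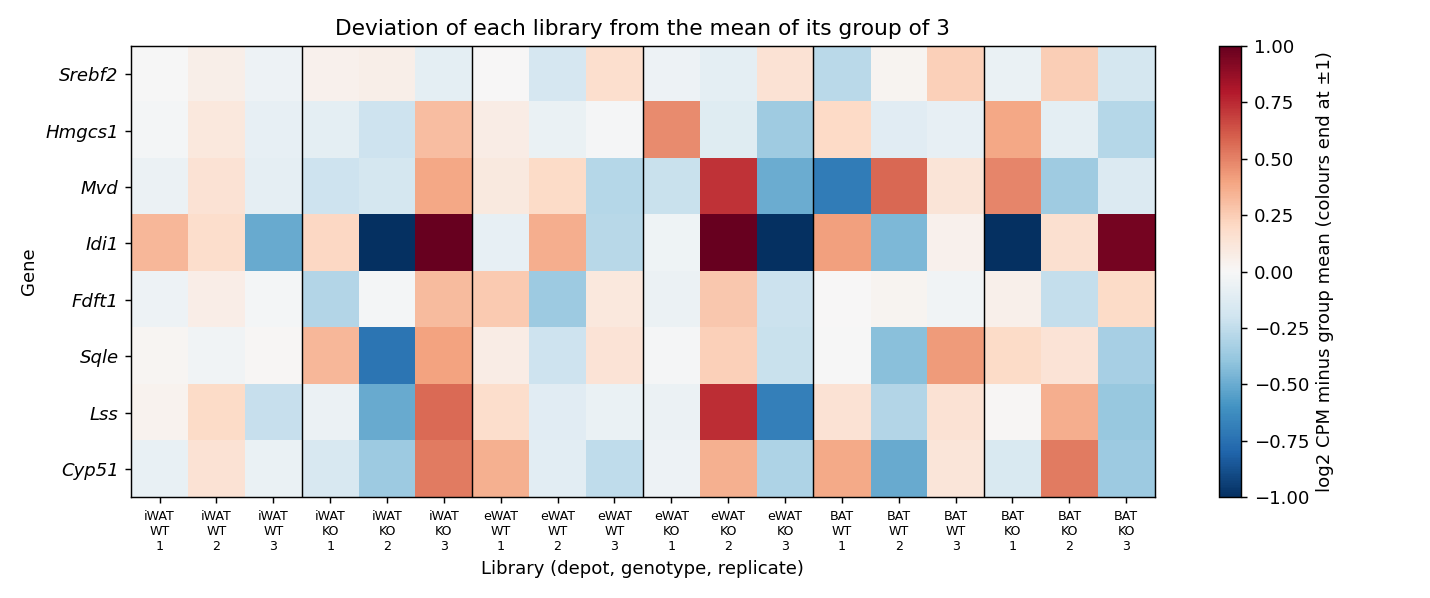
Difference of log2 CPM from the mean of the group of 3 (colour, ending at ±1) for the 8 genes (rows) in the 18 libraries (columns, by depot, genotype and replicate). The C6KO libraries of the white depots show the widest columns of one colour: iWAT C6KO replicate 3 and eWAT C6KO replicate 2 are high across most enzymes, iWAT C6KO replicate 2 and eWAT C6KO replicate 3 low.

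As a median over the pairs, the shared movement was seen in the white depots. The median r between members was 0.75 over the 6 iWAT libraries, 0.40 over the 6 eWAT libraries and 0.016 over the 6 BAT libraries. Averaged over the 8 genes, iWAT C6KO replicate 3 lay 0.44 above and replicate 2 0.41 below their group's mean on the log2 scale, and eWAT C6KO replicates 2 and 3 lay 0.40 above and 0.40 below theirs. All 6 BAT libraries and all 6 WT libraries of the white depots stayed within -0.14 and 0.12. This average weights the 8 genes alike, Idi1 with its low counts included. Idi1 lay at -1.33 in iWAT C6KO replicate 2 and at 0.96, on 14 counts, in BAT C6KO replicate 3. In that BAT library Fdft1 (0.19) was also above the group's mean, while the rest were below, among them Lss (-0.38) and Cyp51 (-0.36). An average without Idi1 was not computed.

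The promoters of Lss and Cyp51, the pair that moved most alike, are shown with capitals as above.
Lss, chr10:76531355-76531654, plus strand: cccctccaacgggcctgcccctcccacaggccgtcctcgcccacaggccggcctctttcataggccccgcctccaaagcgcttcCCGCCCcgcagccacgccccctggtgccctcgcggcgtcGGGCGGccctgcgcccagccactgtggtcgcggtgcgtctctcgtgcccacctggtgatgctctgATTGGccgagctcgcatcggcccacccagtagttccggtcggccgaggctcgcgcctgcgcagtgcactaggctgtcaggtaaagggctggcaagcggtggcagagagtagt
Cyp51, chr5:4104648-4104947, minus strand: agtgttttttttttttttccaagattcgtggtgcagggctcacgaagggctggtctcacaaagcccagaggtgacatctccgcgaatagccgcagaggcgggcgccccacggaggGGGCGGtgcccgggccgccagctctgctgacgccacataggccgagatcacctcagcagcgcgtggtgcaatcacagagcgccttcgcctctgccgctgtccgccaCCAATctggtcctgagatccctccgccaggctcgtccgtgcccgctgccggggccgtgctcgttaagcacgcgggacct
Each held 1 CCAAT box, and Lss held 2 GC boxes and Cyp51 1. Neither held TCACNCCAC, which says only that these letters are not in the window. The ratio of Lss to Cyp51, both per kilobase, was 0.51 to 1.14 over the 18 libraries.

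Outside the 8 genes, the 10 whose deviations ran most like the members' mean among 15858 genes were Hfe (r = 0.94), Scd2 (0.94), Ncan (0.93), Elovl3 (0.93), Acss2 (0.93), Glyctk (0.93), C730029A08Rik (0.92), Nsdhl (0.92), Aldh1a7 (0.91) and C130074G19Rik (0.91). Scd2 and Acss2 belong to fatty acid synthesis and Nsdhl to the sterol route itself. The 14 other synthesis enzymes had a median r of 0.67 to the members' mean, against 0.018 for all other genes, and 5 of them ranked in the top 100 and 10 in the top 1000. Fdps, which makes the farnesyl units joined by Fdft1, ranked 16 (r = 0.90). Among the fatty acid synthesis genes Scd2 ranked 2, Acss2 5, Me1 26, Elovl6 112, Fasn 128 and Acly 453. Acaca, Scd1 and Acacb of the same list ranked 4457, 5178 and 10544. Macrophage markers moved alike as well. Of the 8, Itgax (r = 0.77, rank 108), Csf1r (0.62), Trem2 (0.58), Cd68 (0.56) and Adgre1 (0.54) ranked in the top 1000, while Lyz2 (0.49), Mrc1 (0.37) and Cd14 (0.035) ranked lower. Their part in the members' shared movement was not tested.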

How the data were processed

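Poly(A) RNA of 3 adipose depots was sequenced on an Illumina instrument. The values used are raw read counts per gene over exons, deposited by the authors as 1 table per depot after alignment with STAR to mm10 and counting with HOMER, 1 transcript per gene. Versions, annotation and strand setting are not given in the sources used here. The labels call the libraries biological replicates; whether each is 1 animal, or whether depots share animals, is not stated, so p-values measure the spread between these libraries. From the counts, CPM with TMM factors over 18 libraries and edgeR 4.0.16 quasi-likelihood tests (robust, filterByExpr, Benjamini-Hochberg over all genes tested) were computed in R 4.3.3, with a fit per depot for C6KO against WT and 1 fit of all libraries for interactions and WT depots. Calls needed an adjusted p below 0.05 and 1.5-fold. DESeq2 1.42.0, other scalings, filters and blocks, and leaving out each library were alternatives. The fits were tested on simulated data with changes of 2 on the log2 scale in well-counted genes. These are larger than any C6KO estimate of the 8 genes, so the simulation does not cover smaller changes or low counts. Total counts set the precision, 7803108 to 19139694 per library. The tables listed another transcript between depots for 2619 of 25124 genes, none of them among the 8. The 8 genes and all lists were chosen with earlier results of these data known. By the rule for named genes, Casp6 and the 8 members are given in full, the other lists by counts, medians and examples, and the 10 genes most like the members' mean by name. The examples, and the ratio of Hmgcs1 to Fdft1, were picked after their values were seen. Some list genes are not reported here.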

Additional observations from a re-analysis of the deposited data

Results flagged for a closer look

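For Elovl6, a fatty acid elongase, the C6KO effect differed between BAT and iWAT by 2.19 on the log2 scale (SE 0.41, adjusted p = 0.0396, edgeR's quasi-likelihood interaction test), which is why it is given here. Elovl6 (chromosome 3, 129532386 to 129638493) lies close to the deleted gene Casp6 (chromosome 3, 129901415 to 129914112). An effect of this position cannot be told apart from the loss of caspase-6 and was not tested. The level of Elovl6 was 11.4, 7.19 and 16.3 CPM in iWAT C6KO against 30.8, 24.4 and 23.9 CPM in iWAT WT (-1.17, adjusted p = 0.154). In BAT it was 495, 618 and 347 CPM in C6KO against 260, 154 and 308 CPM in WT (1.04, adjusted p = 0.142). All 3 C6KO libraries were below WT in iWAT and above WT in BAT, and edgeR called neither effect within its depot, while DESeq2 called both (-1.18, adjusted p = 0.00399 in iWAT, and 1.05, adjusted p = 0.00920 in BAT). Among the 9 fatty acid synthesis genes edgeR called none in any depot, and DESeq2 called Elovl6 and Acacb in iWAT and BAT and Acacb in eWAT. DESeq2 called the difference between depots too (2.18, adjusted p = 5.64e-05). In edgeR, leaving out 1 library at a time gave 1.94 to 2.52, with the call kept only without iWAT C6KO replicate 3, BAT WT replicate 3 or BAT C6KO replicate 3 and an adjusted p of up to 0.120 otherwise.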

How the results depend on the processing

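Of 1441 values recomputed under an alternative, 1321 kept their direction and their side of the threshold, 27 lost a call, 27 gained one, 45 changed sign and 21 counts or medians moved. None of the 45 was called to begin with. Where no value below shows a cause, the cause was not tested.

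DESeq2 called 1 member higher (Fdft1) in BAT C6KO and in the differences of BAT from iWAT and of BAT from eWAT. The fit of all 18 libraries called 1 in BAT C6KO, and a minimum of 10 counts in every library called 1 in BAT against iWAT. DESeq2, scaling by total counts and the minimum of 10 counts each called 2 members lower between WT BAT and iWAT (Mvd and Lss) in place of 1. The members' median moved to -0.65 between WT BAT and eWAT with total counts and to 0.040 between WT eWAT and iWAT with the minimum of 10 counts. Signs changed for estimates near 0. Cyp51 between WT eWAT and iWAT was 0.016 with DESeq2 or its size factors, 0.13 with total counts and 0.040 with the minimum of 10 counts. Lss in BAT C6KO was 0.017 with DESeq2, 0.015 with its size factors, 0.023 without a filter and 0.016 with the minimum of 10 counts, and between WT BAT and eWAT it was -0.25 with total counts and -0.088 with the minimum of 10 counts. With total counts Idi1 was -0.028 in eWAT C6KO and -0.093 between WT BAT and eWAT.

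Leaving out 1 library at a time gave 0 to 4 members called lower in iWAT C6KO, 0 to 1 called higher in the difference of BAT from iWAT and 0 to 1 called lower between WT BAT and iWAT. The members' median ran from -0.42 to 0.067 for the difference of BAT from eWAT, 0.28 to 0.78 for BAT from iWAT and 0.35 to 0.87 for eWAT from iWAT. Signs turned in BAT C6KO for Cyp51 (-0.41 to 0.087), Idi1 (-0.93 to 0.11), Lss (-0.19 to 0.17), Mvd (-0.43 to 0.18), Sqle (-0.10 to 0.35) and Srebf2 (-0.059 to 0.22). They turned in eWAT C6KO for Cyp51 (-0.12 to 0.26), Idi1 (-0.80 to 0.44), Lss (-0.21 to 0.50), Mvd (-0.21 to 0.45), Sqle (-0.014 to 0.20) and Srebf2 (-0.12 to 0.052), and in iWAT C6KO for Hmgcs1 (-0.12 to 0.16). Between WT depots they turned for Cyp51 in eWAT against iWAT (-0.21 to 0.11), Idi1 in BAT against eWAT (-0.042 to 0.43) and Lss in BAT against eWAT (-0.032 to 0.17).

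In none of the 15 pairs of groups were all 3 correlations between deviations of libraries of the same number over 0.1. Between BAT WT and C6KO, which differ in genotype, their mean was -0.29. Within WT the mean was 0.13 for iWAT and eWAT, 0.055 for iWAT and BAT and 0.025 for eWAT and BAT. For other numbers these means were -0.066, -0.027 and -0.012. Within C6KO the means were 0.081, 0.063 and -0.0046 for the same number and -0.040, -0.032 and 0.0021 for others, in that order. Deviations cancel out within a group, so the means for other numbers largely follow from those for the same number and are no separate comparison. The numbers were not taken as pairs, and whether libraries of a number share an animal was not tested. With the replicate block Idi1 in eWAT C6KO was -0.17, Fdft1 in BAT C6KO was 0.70 (adjusted p = 0.145), Soat1 in BAT C6KO lost its call (-1.62, adjusted p = 0.0504) and the Elovl6 difference of BAT from iWAT did as well (2.24, adjusted p = 0.0647). A block on genotype and number, added after seeing the data, gave 2.21 (adjusted p = 0.0881) for the last.

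Over all genes, calls of C6KO against WT in iWAT were 1 higher and 3 lower by edgeR and 168 and 498 by DESeq2. The eWAT calls were 80 higher and 31 lower by edgeR and 429 and 190 by DESeq2, those of BAT 23 and 145 by edgeR and 156 and 391 by DESeq2. For the difference of eWAT from iWAT the counts were 0 and 0 against 9 and 5 by DESeq2, for BAT from iWAT 11 and 18 against 64 and 100, and for BAT from eWAT 8 and 77 against 52 and 290. Counts were lowest for Idi1 (2 to 37 per library) and for Mvd in BAT (26 to 100), where counting error and the spread between libraries were not separated.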
